A study of Mus musculus with 2 samples.

Results

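Haemoglobin transcripts filled most of the RNA in a small set of barcodes from embryonic mouse cortex. These erythroid barcodes were all droplet barcodes in which *Hba-a1*, *Hba-a2*, *Hbb-bs* and *Hbb-bt* together made up at least 10% of all unique molecular identifiers (UMIs, 1 per captured transcript), with no minimum number of genes. Embryo 4 gave 120 of 12825 such barcodes, a share of 0.936% with a 95% interval (Clopper-Pearson) from 0.776% to 1.12%. Embryo 5 gave 191 of 12289, or 1.55% (1.34% to 1.79%), and both together 311 of 25114. The intervals cover counting error only.

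Both libraries came from E16.5 mouse embryos, from cortex as the protocol has it (labelled Brain hemispheres), dissociated with papain and run on the 10x Genomics 3′ v3.1 platform. Both embryos had the genotype label WT and were controls of a line written EoMltt3 in the sample titles, EomesMllt3 in the design text and Eomes-Cre in the series title, with no further allele given, and the study's text names C57BL/6J for its E16.5 cortices. There was 1 library per embryo and 1 condition, so the embryos, numbered 4 and 5 as in their labels, are 2 replicates. The libraries held 124318613 and 117679925 UMIs. They shared 46 barcode sequences, of which 1 was an erythroid barcode, in embryo 5 only, with 7521 haemoglobin UMIs there and 7 under the same sequence in embryo 4.

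Red blood cells of the fetus come in a primitive wave from the yolk sac and a definitive wave from the fetal liver. Late in maturation the definitive cell expels its nucleus and becomes a reticulocyte, which keeps ribosomes, mitochondria and a store of messenger RNA dominated by the α- and β-globins for a short time before it becomes an erythrocyte. Primitive cells use the embryonic globins *Hba-x* (ζ) and *Hbb-y* (εy) together with α-globin, while definitive cells use adult α-globin (*Hba-a1*, *Hba-a2*) and adult β-globin (*Hbb-bs*, *Hbb-bt*). In dissected brain, red cells arrive as blood inside the vessels.

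The 2 adult α-globin genes lie at chr11:32283672-32284486 (*Hba-a1*) and chr11:32296492-32297310 (*Hba-a2*), and the adult β-globin genes at chr7:103826523-103827928 (*Hbb-bs*) and chr7:103812524-103813923 (*Hbb-bt*), both on the reverse strand (GRCm38.p6, RefSeq). The α genes share nearly all of their sequence. The coding sequences of *Hba-a1* and *Hba-a2* (429 bases each in GENCODE vM39) differed at 1 position, C381T, counted from the A of the start codon with the *Hba-a1* base first. That position lies in exon 3 of 3, at position 32234343 of chromosome 11 in *Hba-a1* and 32247160 in *Hba-a2* (GRCm39). Coding bases 361 to 401 are shown, with the differing base in capitals.

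Hba-a1: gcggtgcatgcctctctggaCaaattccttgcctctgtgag
Hba-a2: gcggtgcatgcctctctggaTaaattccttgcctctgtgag

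After the stop codon all 90 bases of the shorter annotated end were identical between the 2 α genes. The β pair also differed at 1 of 444 coding bases (C417T, *Hbb-bs* base first, exon 3 of 3), but only 95 of 133 bases after the stop codon were identical in a global alignment, which leaves more differing bases in the 3′ stretch that this assay reads than in the α pair. Coding bases 397 to 437 of the β pair are shown in the same way.

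Hbb-bs: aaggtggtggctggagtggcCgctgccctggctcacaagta
Hbb-bt: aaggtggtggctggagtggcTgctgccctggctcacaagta

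The 250 bases before the start sites of adult and embryonic globin genes are given (RefSeq, GRCm38.p6, 5′ to 3′ on the gene's strand). *Hba-a1*, *Hbb-bs* and *Hbb-bt* are among the genes that define the barcodes. The embryonic genes *Hba-x* and *Hbb-y* are not and are shown beside them. Capitals mark 4 motifs searched on both strands. TATAA stands for the TATA box and CCAAT for the box of that name. The letters CACCC are bound by KLF factors and the letters GATAA by GATA factors. No motif holds another. The first 3 are at chr11:32283422-32283671, chr7:103827929-103828178 and chr7:103813924-103814173, and the embryonic genes are at chr11:32276350-32276599 and chr7:103853208-103853457.

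Hba-a1: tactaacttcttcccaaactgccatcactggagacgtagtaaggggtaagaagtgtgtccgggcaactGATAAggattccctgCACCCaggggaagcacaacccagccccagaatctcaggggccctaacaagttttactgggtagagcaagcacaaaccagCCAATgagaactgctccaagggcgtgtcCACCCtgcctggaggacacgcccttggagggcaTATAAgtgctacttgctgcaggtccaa
Hbb-bs: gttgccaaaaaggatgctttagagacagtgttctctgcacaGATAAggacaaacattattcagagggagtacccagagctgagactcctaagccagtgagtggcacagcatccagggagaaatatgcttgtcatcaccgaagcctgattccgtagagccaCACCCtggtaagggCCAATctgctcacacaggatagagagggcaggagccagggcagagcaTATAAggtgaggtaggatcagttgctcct
Hbb-bt: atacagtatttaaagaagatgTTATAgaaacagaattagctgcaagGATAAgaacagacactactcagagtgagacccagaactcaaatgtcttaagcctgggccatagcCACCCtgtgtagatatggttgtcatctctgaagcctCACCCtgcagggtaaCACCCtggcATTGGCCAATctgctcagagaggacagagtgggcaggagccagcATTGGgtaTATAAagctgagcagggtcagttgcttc
Hba-x: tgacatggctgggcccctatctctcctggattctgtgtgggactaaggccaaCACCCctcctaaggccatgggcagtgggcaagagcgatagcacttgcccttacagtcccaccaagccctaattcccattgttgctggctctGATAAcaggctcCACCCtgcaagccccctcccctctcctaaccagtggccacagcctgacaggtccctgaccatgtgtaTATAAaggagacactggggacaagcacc
Hbb-y: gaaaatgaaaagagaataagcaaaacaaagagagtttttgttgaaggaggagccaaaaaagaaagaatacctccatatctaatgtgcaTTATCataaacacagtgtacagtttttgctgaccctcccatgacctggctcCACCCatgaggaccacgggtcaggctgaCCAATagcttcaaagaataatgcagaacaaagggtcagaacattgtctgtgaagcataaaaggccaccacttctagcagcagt

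Aligned with a shift of 3 bases, the *Hba-a2* stretch was identical to that of *Hba-a1* over all 247 compared bases. All 6 globin genes searched, *Hba-a2* included, held CACCC and GATAA, against 52.0% and 22.6% of the 32851 promoters of this length in the table. TATAA and CCAAT were found in 5 of the 6 genes each, against 22.8% and 33.8% of all promoters. In *Hbb-bt* a reversed CCAAT directly adjoins the forward one. A match is a run of letters, and no binding was measured here.

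The 4 genes that set the rule took most UMIs of most erythroid barcodes. The erythroid barcodes held a median of 84.6% haemoglobin UMIs in embryo 4 (lowest 10.1%, highest 93.5%) and 90.4% in embryo 5 (lowest 11.7%, highest 96.0%). Barcodes at 80% or more numbered 74 and 145, those between 50 and 80% 22 and 19, and those between 10 and 50% 24 and 27. Just inside the limit stood barcodes at 10.1, 11.6 and 12.1% in embryo 4 and 11.7, 13.3 and 14.6% in embryo 5. Just outside it stood barcodes at 9.49, 7.62 and 6.14% and at 9.17, 5.47 and 3.46%. Few barcodes lay near the limit, with 10 of embryo 4 and 5 of embryo 5 between 2 and 10%.

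Haemoglobin RNA was also present at a trace in most other barcodes. At least 1 UMI of the 4 genes was found in 87.1% of the other barcodes of embryo 4 and 96.5% of those of embryo 5, with medians of 2 and 3 UMIs against 4170.5 and 4647 in the erythroid barcodes. The erythroid barcodes, 0.672% and 1.12% of all UMIs, held 94.4% and 95.2% of the haemoglobin UMIs of their libraries.

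Outside the 4 genes (other UMIs from here on), the erythroid barcodes fell into shallow and deep ones. The line was drawn at 2000 other UMIs after the data were seen. The 100 shallow barcodes of embryo 4 and 165 of embryo 5 held medians of 624.5 and 361 other UMIs and 377 and 223 genes. The 20 and 26 deep barcodes held medians of 8560 and 10248.5 other UMIs and 3250.5 and 3575 genes, near the medians of 9377 and 8879.5 other UMIs in the rest of the barcodes. None of the shallow barcodes reached 1000 genes, a common minimum for cells. Thinned to 200 other UMIs each, shallow barcodes gave 151 and 137 genes, deep ones 175 and 179 and the rest 178 and 178, leaving out 1 and 16 shallow barcodes with fewer.

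**Figure D1:**
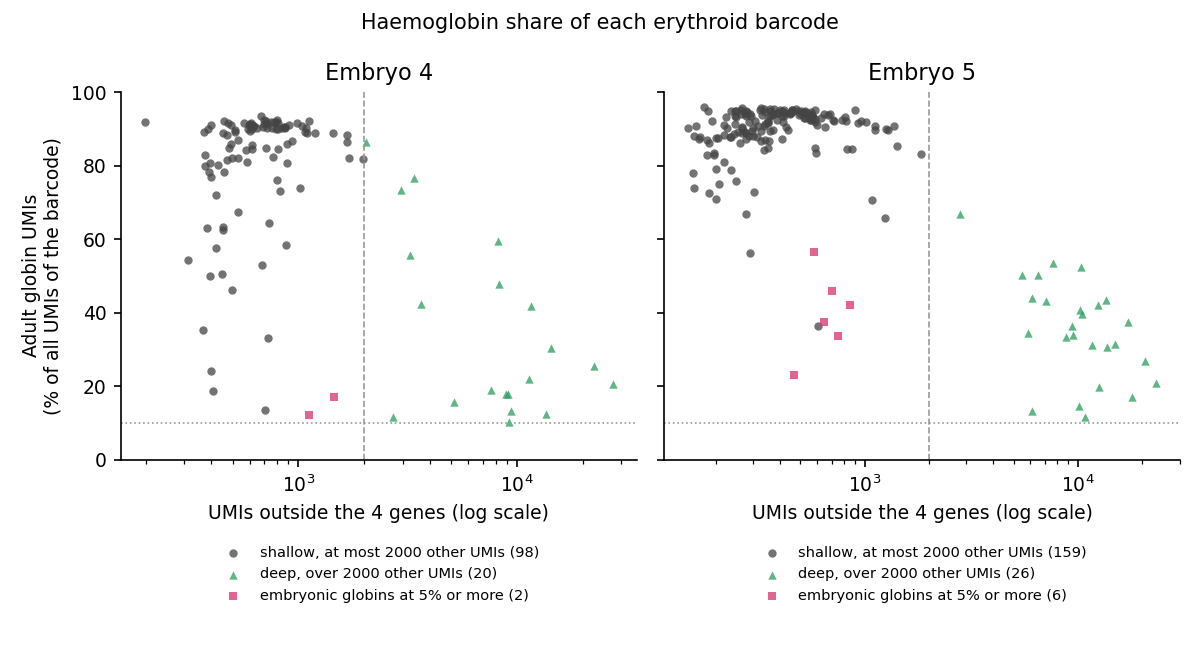
Haemoglobin share (*Hba-a1*, *Hba-a2*, *Hbb-bs* and *Hbb-bt* as a percent of all UMIs of a barcode) against the UMIs outside these genes on a log scale, 1 point per erythroid barcode, by embryo. The dashed line marks 2000 other UMIs and the dotted line the 10% limit of the rule. Most points lie above 80% and left of the dashed line, the 20 and 26 deep barcodes (triangles) lie mostly below 60%, and squares mark the 2 and 6 barcodes with embryonic globins at 5% or more of UMIs.

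Nuclear RNA differed between the shallow and the deep barcodes by median and by sum, with overlap between single barcodes. *Malat1*, a long noncoding RNA that stays in the nucleus, had a median of 1 UMI (embryo 4) and 0 UMIs (embryo 5) in shallow barcodes, 168 and 157.5 in deep ones and 153 and 156 in the rest. The summed share of 6 transcripts kept in the nucleus (*Malat1* and *Meg3* with *Rian*, *Kcnq1ot1*, *Miat* and *Neat1*) was 0.461% and 0.331% of other UMIs in shallow barcodes, 1.97% and 1.56% in deep ones and 1.83% and 1.88% in the rest. In single shallow barcodes it reached from 0% to 4.19% (embryo 4) and to 4.65% (embryo 5). In single deep ones it reached from 0.0308% to 5.16% and from 0.405% to 2.72%. Ribosomal protein transcripts took 18.9% and 17.7% of other UMIs in shallow barcodes against 10.4% and 10.6% in the rest. Mitochondrial transcripts took 4.51% and 5.001% in shallow barcodes against 3.04% and 2.60%. In all 4 measures the medians or sums of shallow barcodes lay on the same side of the rest in both embryos.

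Deep barcodes carried brain transcripts at levels close to those of the rest. The excitatory neuron list (12 genes) summed to 8183 and 7032 UMIs per 1000000 other UMIs (CPM) in deep barcodes, 3174 and 2563 in shallow ones and 7376 and 7616 in the rest. The interneuron list (10 genes) differed between embryos in deep barcodes, at 7864 and 1286 CPM against 2948 and 2915 in the rest. In embryo 4, 1 deep barcode held 461 of the 962 *Nrxn3* UMIs over all erythroid barcodes. The radial glia list (10 genes) stood at 1770 and 2582 CPM in deep barcodes against 2595 and 2553 in the rest. The intermediate progenitor list (7 genes) stood at 503 and 732 against 616 and 584. The deep barcodes held 184771 of 255345 other UMIs in embryo 4 and 285428 of 359959 in embryo 5. Any sum of other UMIs over all erythroid barcodes therefore consists mostly of these 46 barcodes, and the counts of called genes are given with and without them. No doublet caller was run, and whether a deep barcode held more than 1 cell was not tested.

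The ratios of *Alas2* and *Slc25a37* to haemoglobin were of like size in shallow and deep barcodes, while that of *Slc4a1* was lower in the deep ones. *Alas2* stood at 11.2 and 9.60 UMIs per 10000 haemoglobin UMIs in shallow and 9.46 and 10.0 in deep barcodes. *Slc25a37* stood at 7.72 and 6.71 in shallow and 6.73 and 7.17 in deep barcodes. *Slc4a1* stood at 1.61 and 1.10 in shallow and 0.390 and 0.921 in deep barcodes, the latter on 4 and 14 UMIs. In the rest of the barcodes the ratios of *Alas2* (241 and 153) and *Slc25a37* (103 and 65.0) were far from those of erythroid barcodes, and that of *Slc4a1*, at 1.75 and 2.71 on 6 and 13 UMIs, was near them in embryo 4.

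The balance of α to β UMIs was close between the embryos. Summed over erythroid barcodes, embryo 4 held 159717 *Hba-a1*, 45868 *Hba-a2*, 277934 *Hbb-bs* and 96896 *Hbb-bt* UMIs, and embryo 5 held 330307, 14858, 447459 and 166818. The α genes made up 35.4% and 36.0% of the 4 genes, and *Hbb-bt* 25.9% and 27.2% of the β UMIs. These are descriptions of the genes that chose the barcodes and carry no test. The α pair shares more of its 3′ sequence than the β pair. How reads that match both genes of a pair were counted was not examined, so the α share of transcripts may differ from that of UMIs.

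The split between the 2 α genes differed between the embryos. *Hba-a2* made up 22.3% of α UMIs in embryo 4 and 4.30% in embryo 5. Among erythroid barcodes with at least 200 haemoglobin UMIs, the 116 of embryo 4 ran from 15% to 34.5% (median 22.4%) and the 190 of embryo 5 from 0.772% to 25.8% (median 3.41%). Of the latter, 188 lay below the lowest barcode of embryo 4. The 2 exceptions stood at 25.8% (730 of 2830 α UMIs) and 20% (33 of 165). The same gap was seen in the other barcodes of each library, with 23.4% and 6.86% in the rest as a whole, 22.3% and 5.14% in barcodes with under 0.2% of nuclear-retained transcripts (Malat1-poor) and 21.8% and 7.83% in barcodes with at least 10 UMIs of vessel cell markers (vascular). The genes differ at the single coding base printed above, and the bases read in each embryo were not examined here.

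**Figure D2:**
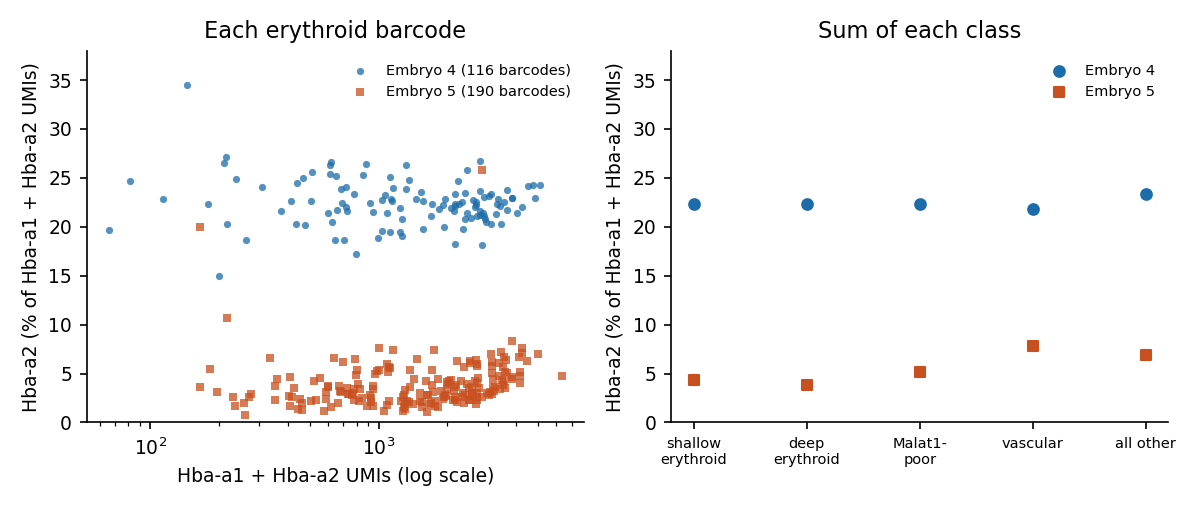
*Hba-a2* as a percent of *Hba-a1* plus *Hba-a2* UMIs, for each erythroid barcode with at least 200 haemoglobin UMIs against its α UMIs on a log scale (left), and for the sum of each class of barcodes (right). Circles are embryo 4 and squares embryo 5. The embryos separate at every depth except for 2 barcodes of embryo 5 at 20 and 25.8%, and the class sums lie between 21.8 and 23.4% in embryo 4 and between 3.86 and 7.83% in embryo 5.

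Embryonic globins were rare over all erythroid barcodes and concentrated in a few. *Hba-x*, *Hbb-y* and *Hbb-bh1* together were 0.226% of all globin UMIs in embryo 4 (Clopper-Pearson 0.214% to 0.238%) and 0.212% in embryo 5 (0.203% to 0.222%). These intervals treat each UMI as an independent draw. They leave out the spread between barcodes and are too narrow where a few barcodes hold most UMIs. *Hbb-bh2* had no UMI. Barcodes with embryonic globins at 5% or more of their UMIs, a line drawn after the values were seen, numbered 2 in embryo 4 and 6 in embryo 5. These 8 held 99.3% of the *Hba-x* and *Hbb-y* UMIs of all erythroid barcodes.

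The 8 barcodes differed from most others in their globins. Embryonic globins took 46.9% and 37.3% of UMIs in the 2 of embryo 4, and from 14.7% to 42.0% in the 6 of embryo 5. The balance of the embryonic genes varied, with 670 *Hbb-y* and 148 *Hba-x* UMIs in 1 barcode of embryo 4 and 64 and 407 in the other, whereas *Hbb-y* exceeded *Hba-x* in 5 of the 6 in embryo 5. Adult β transcripts were scarce, with 65 *Hbb-bs* UMIs in embryo 5 against 2667 *Hba-a1*, so that α genes made up 96.1% of the 4 adult genes there against 35.8% in the other shallow barcodes. In the 2 barcodes of embryo 4 the α share was 60.5% and 99.4%. A high α share was also seen outside the 8. In embryo 4 a deep barcode with 0 *Hba-x* and *Hbb-y* UMIs stood at 83.2%, on 956 haemoglobin UMIs. A shallow one with 1 *Hba-x* UMI stood at 74.8%, on 111. All 8 were small, at 605 to 1750 UMIs.

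Transcripts of haem synthesis were scarce in these 8 barcodes. The haem synthesis list summed to 3.30 and 2.92 per 10000 UMIs of any gene in embryos 4 and 5, on 1 and 2 UMIs, against 23.3 and 21.9 in the other shallow barcodes. The reticulocyte maturation list was nearer, at 13.2 and 20.4 against 33.1 and 27.6, on 4 and 14 UMIs. Over their 9888 UMIs, *Slc25a37*, the mitochondrial iron importer, had 0 UMIs, which allows up to 3.03 per 10000 UMIs, against 6.41 in the other shallow barcodes. *Alas2* had 2 UMIs where 9.11 would be found at the rate of the other shallow barcodes, *Gpx1* 1 where 15.5 would be found, and *Mkrn1* 1 where 6.80 would be. The ferritin transcripts were higher in the 2 barcodes of embryo 4, on 47 *Fth1* and 29 *Ftl1* UMIs. In the 6 of embryo 5 they were slightly lower, on only 13 and 14 UMIs. *Fth1* stood at 155 per 10000 UMIs in the 2 barcodes of embryo 4 against 27.2 in the other shallow barcodes, and at 18.9 in the 6 of embryo 5 against 21.4. *Ftl1* stood at 95.8 against 36.1 and at 20.4 against 27.01. Nuclear-retained transcripts were 3.76% of other UMIs in the 2 barcodes of embryo 4 and 0.751% in the 6 of embryo 5, against 0.335% and 0.308% in the other shallow barcodes. These barcodes were picked by their globins, and no test was made.

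**Figure D3:**
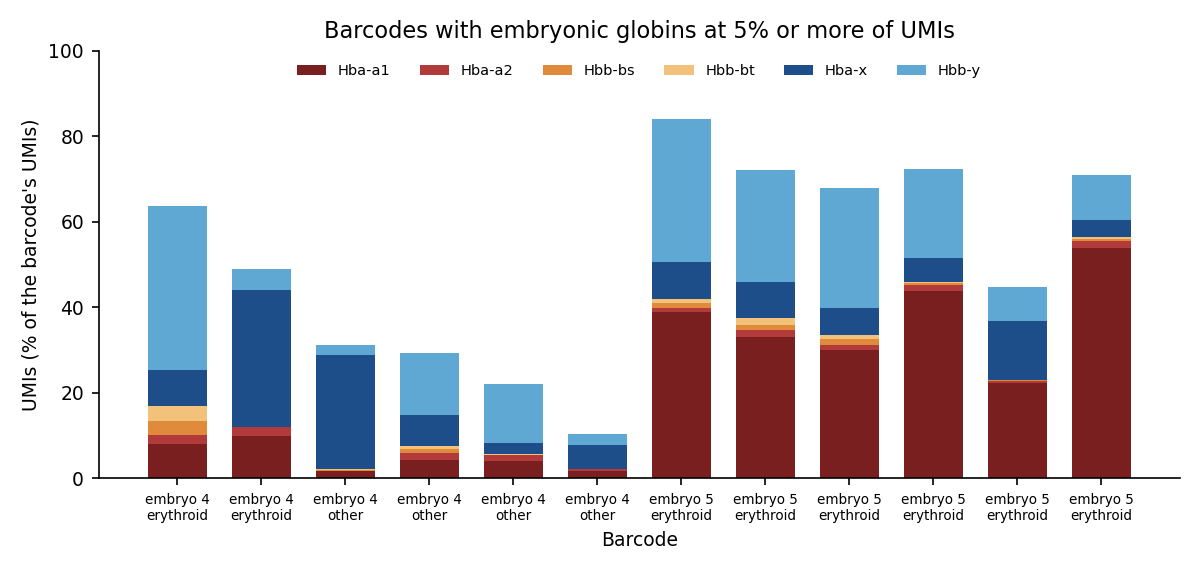
Globin composition of the 12 barcodes in which embryonic globins made up at least 5% of UMIs, as stacked percent of the barcode's UMIs for *Hba-a1*, *Hba-a2*, *Hbb-bs*, *Hbb-bt*, *Hba-x* and *Hbb-y*. The 4 marked other, all of embryo 4, have under 10% of the adult genes and are no erythroid barcodes by the rule. *Hba-a1* is the main adult gene in every bar, and *Hbb-bs* and *Hbb-bt* are thin or missing in all but the first.

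Among the barcodes left outside by the rule, 4 of embryo 4 and 0 of embryo 5 were rich in embryonic globins, with 551 to 730 UMIs, 8.16% to 29.1% embryonic globins and 2.04% to 7.62% of the adult genes. The embryonic share moved with the limit of the rule, and at 50% or more adult haemoglobin it was 0.00267% and 0.0238% of globin UMIs.

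The transcripts outside the 4 genes were next compared with those of all other barcodes, to ask what else the erythroid barcodes carried. UMIs were summed per embryo and class with the 4 genes left out of the sums and of the library sizes, and the 2 sums of erythroid barcodes were tested against the 2 sums of the rest with edgeR's quasi-likelihood test and Benjamini-Hochberg adjustment over all genes tested. Of 18437 genes, 267 were higher (1.45%) and 18 lower (0.0976%) at an adjusted p under 0.05, and 96 lower with the embryo as a block, which changed the count of higher genes less, to 309. With shallow barcodes alone, 490 of 18376 were higher (2.67%) and 396 lower (2.15%). The median log2 fold change of all genes was −0.21 with all erythroid barcodes and −3.12 with the shallow ones, in which most brain genes had few or no UMIs.

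Erythroid markers that the rule did not use were present. Of 11 such markers, among them *Alas2*, *Slc4a1*, *Slc25a37*, *Bpgm*, *Bnip3l*, *Epb42*, *Klf1* and *Gata1*, 9 were higher than in the rest, by log2 3.22 to 11.96. *Klf1* and *Gata1*, transcription factors that drive globin and red cell genes in nucleated precursors, had 4 and 1 UMIs and 0 and 3 UMIs in the 2 embryos and were not called (edgeR adjusted p = 0.251 and 0.237). *Ahsp* was not analysed here. At 500 UMIs of any gene per barcode, *Alas2* would be found in 32.7% and 31.01% of erythroid barcodes and in 0.353% and 0.359% of the rest. Unthinned, the shares were 82.5% and 81.2% against 5.94% and 5.59%, at median depths of 6209.5 and 5532 UMIs against 9379 and 8881.5.

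Genes of haem synthesis and mitochondrial iron import were higher in part. Of 15 genes 8 were higher and 0 lower, with a median log2 fold change of 1.97. *Alas2*, the first enzyme of haem synthesis in red cells, held 633 and 927 UMIs, which is 2479 and 2575 CPM against 6.69 and 6.32 in the rest. Both sums of erythroid barcodes lay far above both sums of the rest, and the difference was log2 8.72 ± 0.15 (SE, edgeR adjusted p = 8.78e-09). *Slc25a37* stood at 1715 and 1809 CPM against 2.86 and 2.67, a log2 difference of 9.43 ± 0.15 (edgeR adjusted p = 6.98e-09). *Fech*, which inserts iron into the ring as the last step, stood at 717 and 800 CPM against 15.3 and 14.05. Shallow barcodes alone gave 10 of 15 higher, and *Alas2* stood there at 7595 and 10398 CPM.

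By UMIs, which this assay counts at the 3′ end of each transcript, iron storage transcripts were among the most abundant RNA of shallow barcodes outside the 4 genes. There *Ftl1*, ferritin light chain, stood first by the mean of both embryos at 28282 and 31906 CPM, and *Fth1*, ferritin heavy chain, at 21722 and 25251. *Gm42418*, a predicted gene that overlaps a ribosomal RNA repeat and was chosen after its value was seen, stood between them by that mean at 24272 and 32792, above *Fth1* in both embryos and above *Ftl1* in embryo 5. Over all erythroid barcodes *Malat1*, with 3802 and 4448 UMIs, exceeded *Ftl1* with 2694 and 3240. Over all erythroid barcodes *Ftl1* was higher than in the rest by log2 2.84 ± 0.14 (edgeR adjusted p = 5.98e-06) and *Fth1* by 3.52 ± 0.13 (edgeR adjusted p = 8.6e-07). Only these 2 of the 8 iron genes were called. *Tfrc*, the transferrin receptor that brings iron into dividing precursors, had 6 and 14 UMIs, of which 0 and 4 lay in shallow barcodes.

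Of 18 genes of the red cell membrane and its skeleton 12 were higher, 0 lower and 6 not called, with a median log2 fold change of 3.93. Shallow barcodes alone gave 13 higher and a median of 5.96. *Slc4a1*, the anion exchanger band 3, held 81 and 103 UMIs (317 and 286 CPM) against 6 and 13 in the rest (0.0486 and 0.112 CPM), the highest fold of any gene named by the rule, at log2 11.96 ± 0.27 (edgeR adjusted p = 3.72e-08). *Kel*, the Kell blood group protein, held 21 and 16 UMIs against 2 and 2 in the rest. *Epb42*, protein 4.2, held 12 and 17 UMIs. *Cd24a*, a surface antigen also found on neurons, was higher by only log2 1.51 ± 0.12 (edgeR adjusted p = 0.000156). *Gypc*, glycophorin C, had 0 and 1 UMIs.

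Enzymes that guard the red cell against oxidation and handle its gases were also raised, in 7 of the 8 genes tested, with a median log2 fold change of 4.20 (7 of 8 and 6.48 with shallow barcodes). *Gpx1*, glutathione peroxidase, stood at 4339 and 4484 CPM against 79.8 and 77.9. *Prdx2*, a peroxiredoxin that neurons also express, stood at 3744 and 3517 against 1087 and 1011, the smaller difference of log2 1.90 ± 0.12 (edgeR adjusted p = 2.26e-05). *Bpgm*, which makes the 2,3-bisphosphoglycerate that lowers the oxygen affinity of haemoglobin, differed by log2 6.48 ± 0.14 (edgeR adjusted p = 2.96e-08). *Car2*, carbonic anhydrase, differed by 7.80 ± 0.18 (edgeR adjusted p = 3.87e-08) and *Blvrb*, biliverdin reductase B, by 7.32 ± 0.15 (edgeR adjusted p = 2.75e-08).

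Of 20 genes linked to reticulocyte maturation 14 of the 19 tested were higher and 0 lower, with a median log2 fold change of 2.36 (15 and 4.02 with shallow barcodes). *Tent5c*, a poly(A) polymerase, and *Trim10*, a ubiquitin ligase of erythroblasts, differed by log2 10.06 ± 0.15 (edgeR adjusted p = 4.25e-09) and 11.48 ± 0.39 (edgeR adjusted p = 6.13e-07). *Ube2l6*, a conjugating enzyme for ISG15, differed by 8.77 ± 0.16 (edgeR adjusted p = 1.27e-08). *Bnip3l*, the receptor through which reticulocytes clear their mitochondria, stood at 1316 and 1133 CPM against 144 and 140 (log2 3.22 ± 0.12, edgeR adjusted p = 8.6e-07), and *Gabarapl2*, an autophagosome protein that binds such receptors, differed by 2.13 ± 0.11 (edgeR adjusted p = 6.43e-06).

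**Figure D4:**
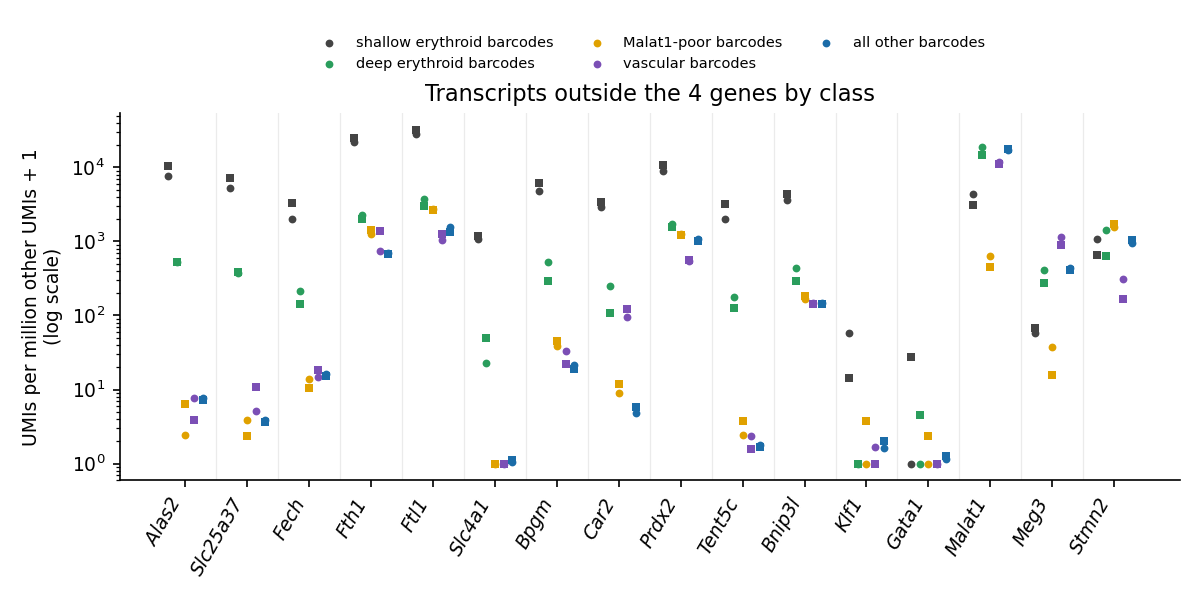
Level of 16 transcripts in 5 classes of barcodes, as UMIs per 1000000 UMIs outside the 4 haemoglobin genes plus 1, on a log scale. Circles are embryo 4 and squares embryo 5. Shallow erythroid barcodes are highest for the 11 genes from *Alas2* to *Bnip3l*, deep ones come next for most, *Klf1* and *Gata1* rest on at most 4 UMIs in any point of the erythroid barcodes, *Malat1* and *Meg3* are lower in shallow than in deep barcodes, and the neuronal transcript *Stmn2* is of like level in both.

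Transcription factors and markers of earlier erythroid stages rested on few UMIs. Of 14 erythroid transcription factors 13 could be tested and 2 were higher, *Lmo2* with 14 and 21 UMIs and *Nfe2* with 2 and 3 (edgeR adjusted p = 0.000227 and 0.0122). With the embryo as a block *Nfe2* was not called (edgeR adjusted p = 0.436). Shallow barcodes gave 7 higher and 1 lower (*Bcl11a*), again on few UMIs, among them *Klf1* with 4 and 1. Of 6 early progenitor markers 3 could be tested and 0 were called. *Gata2*, *Epor* and *Cd34* had 0 UMIs in both embryos, and of the 10 and 14 *Kit* UMIs 1 and 1 lay in shallow barcodes. Of 16 cell cycle genes 0 were higher, and the list summed to 779 and 792 CPM in shallow barcodes against 819 and 903 in the rest. *Cenpf* was lower with all erythroid barcodes (13 and 16 UMIs, log2 fold change −1.23, edgeR adjusted p = 0.0232) and was not called with shallow ones (edgeR adjusted p = 0.312).

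Embryonic and minor globin genes stood among the most raised transcripts, 4 of 4 tested. *Hba-x* held 556 and 494 UMIs against 469 and 63 in the rest (log2 9.77 ± 0.77, edgeR adjusted p = 0.000141), and *Hbb-y* 748 and 1548 against 1019 and 219 (log2 9.60 ± 0.70, edgeR adjusted p = 8.04e-05). Nearly all of these UMIs came from the 8 barcodes described above, and 251 of the 469 *Hba-x* UMIs in the rest of embryo 4 came from the 4 embryonic-rich barcodes left outside the rule. The θ-globin genes *Hbq1a* and *Hbq1b*, whose sequences are close, held 24 and 14 and 15 and 14 UMIs.

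Other leading genes lay outside the gene lists. By the naming rule these were the predicted gene *Gm32051* (22 and 29 UMIs, log2 10.04 ± 0.40, edgeR adjusted p = 1.46e-06), *Ncf4*, a subunit of the phagocyte oxidase (24 and 20 UMIs, log2 9.85 ± 0.43, edgeR adjusted p = 2.78e-06), and *Tspo2*, an erythroid cholesterol-binding protein (82 and 68 UMIs, log2 9.40 ± 0.34, edgeR adjusted p = 8.6e-07).

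Few genes were lower in the sums over all erythroid barcodes. *Ebf1*, a transcription factor, had 0 and 4 UMIs against 55.9 and 61.0 CPM in the rest (log2 fold change −3.05, edgeR adjusted p = 0.0287), and *Pde1a*, a phosphodiesterase, 2 and 2 UMIs against 56.3 and 59.1 CPM (−3.03, edgeR adjusted p = 0.00428). *Nrp2* and *Slit2*, a receptor and a ligand of axon guidance, were lower by log2 −2.11 and −1.49 (edgeR adjusted p = 0.0107 and 0.0207). The other genes that the naming rule gave, *Mgat4c*, *Gm26871*, *Dpp10*, *Hs6st3* and *Bmpr1b*, were lower by log2 −1.13 to −1.97, each with at most 22 UMIs in an embryo. None of these 9 was called with shallow barcodes alone, in which each had at most 5 UMIs in an embryo. With shallow barcodes, *Malat1* was lower by log2 −1.80 (edgeR adjusted p = 0.000451) against −0.27 (edgeR adjusted p = 0.592) with all, and *Meg3* by −2.33 (edgeR adjusted p = 0.0065). *Nrxn3* and *Erbb4*, which mark interneurons, turned from 0.28 and 0.49 (edgeR adjusted p = 0.869 and 0.784) to −2.69 and −2.45 (edgeR adjusted p = 0.00122 and 0.00436). Each of these values with shallow barcodes was less negative than the median of all genes there, −3.12.

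Markers of other blood and vessel cells rested on few UMIs. The 8 granulocyte markers had 0 UMIs in both embryos, the 8 platelet markers 2 and 3 UMIs, all in deep barcodes, the 8 endothelial markers 9 and 7 and the 8 mural markers 3 and 5. The endothelial list summed to 85.0 and 80.5 CPM in shallow barcodes, on 6 and 6 UMIs, against 20.7 and 30.4 in the rest. The 12 macrophage markers had 50 UMIs in embryo 4, of which 47 lay in deep barcodes (254 CPM against 42.0 in the rest), and 4 in embryo 5. Against all other barcodes none of these lists had a called gene. Against Malat1-poor barcodes both endothelial genes tested (*Pecam1* and *Cldn5*) and the 1 mural gene tested (*Rgs5*) were lower. So were 5 of 8 macrophage genes tested, where 8.42% of all genes were lower. With shallow barcodes alone, only *Tyrobp* of these was called. The part of these lists in the other results was not tested. *Sst*, the peptide somatostatin of interneurons, had 8 UMIs in embryo 4 and 29 in embryo 5, 24 of these in 1 deep barcode.

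Barcodes poor in nuclear RNA and under the haemoglobin limit of the rule were then used for comparison. These Malat1-poor barcodes, 962 in embryo 4 and 521 in embryo 5, had the 6 nuclear-retained genes at under 0.2% of UMIs and were no erythroid barcodes. Their own summed share, low by this choice, was 0.0713% and 0.0521% of other UMIs. Shallow barcodes stood at 0.461% and 0.331% and all erythroid barcodes at 1.55% and 1.30%. The limit was set on all UMIs, haemoglobin included, and on that base shallow barcodes lay lower than Malat1-poor ones. The 6 genes held 325 of 548469 and 247 of 881956 UMIs in shallow barcodes. In Malat1-poor barcodes they held 984 of 1381793 and 385 of 741252. Malat1-poor barcodes had medians of 947 and 998 other UMIs, and mitochondrial transcripts took 11.4% and 10.5% of these against 3.38% and 3.03% in erythroid barcodes. Haemoglobin was 0.146% and 0.256% of the UMIs of Malat1-poor barcodes, above the 0.0278% and 0.0412% of all other barcodes. Of 7373 genes 1322 were higher in erythroid barcodes (17.9%) and 621 lower (8.42%). With shallow barcodes alone, 402 of 5757 were higher (6.98%) and 103 lower (1.79%). A gene near 0 in the Malat1-poor barcodes was tested only where the erythroid sums held enough of it, so shares of the tested list genes say little by themselves. *Slc4a1* had 0 UMIs in the Malat1-poor barcodes, so that erythroid barcodes were at least 211-fold higher (3 UMIs over the class as floor, edgeR adjusted p = 2.06e-05). *Alas2* had 2 and 4 UMIs there and differed by log2 9.73 ± 0.33 (edgeR adjusted p = 1.61e-06). *Trim10*, *Gm32051* and *Isg20*, an exonuclease, had 0 UMIs there.

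Against this class haem synthesis gave 8 higher of 10 tested and 1 lower, *Tmem14c*, a porphyrin carrier of the mitochondrial membrane (13 and 15 UMIs, log2 −1.13 ± 0.27, edgeR adjusted p = 0.0192), which was not called with shallow barcodes (edgeR adjusted p = 0.226). The membrane list gave 11 higher of 18 genes (13 tested), red cell enzymes 7 of 10 (7 tested) and reticulocyte maturation 14 of 20 (16 tested), and with shallow barcodes 12, 7 and 15. Of the 16 cell cycle genes 4 were lower, *Cenpf*, *Cdk1*, *Ccnb1* and *Mcm5*, by log2 −1.90, −1.71, −1.85 and −2.24 (edgeR adjusted p = 0.00259, 0.00408, 0.0184 and 0.0449), and 0 with shallow barcodes. Of 12 excitatory neuron genes 3 were higher and 1 lower, against 17.9% and 8.42% of all genes, and 0 and 1 with shallow barcodes. Of 10 interneuron genes 2 were higher, *Erbb4* and *Nrxn3*, by log2 2.96 and 3.45 (edgeR adjusted p = 0.013 and 0.0183). Another 2 were lower, *Dlx1* and *Sst*, and with shallow barcodes none was called of 8 tested. Single barcodes held much of the 2 higher genes. The largest held 228 of 435 *Erbb4* UMIs in embryo 4 and 169 of 177 in embryo 5. For *Nrxn3* the largest held 461 of 962 and 125 of 149. Lower genes included *Aif1* and *Tyrobp* of microglia and *Igfbp7* of vessels. *Aif1* and *Igfbp7* had 0 UMIs in erythroid barcodes against 50 and 36, and 46 and 40, so that each was at least 8.32-fold lower (edgeR adjusted p = 0.00375 and 0.00609). *Tyrobp* had 4 and 0 UMIs against 149 and 59 (log2 −3.79 ± 0.66, edgeR adjusted p = 0.00464), and *Npy*, a neuropeptide, 0 and 1 against 101 and 49 (edgeR adjusted p = 0.000861). *Fabp7*, the lipid carrier of radial glia, was lower by log2 −1.54 ± 0.17 (edgeR adjusted p = 0.000624). Without the deep barcodes, *Npy* and *Tyrobp* were still called and *Aif1*, *Igfbp7* and *Fabp7* were not. The other genes named lower by the rule, *Rgs5*, *Rgs10*, *Cyba*, *Fcer1g*, *Cd52* and *Stard4*, had 1 or 2 UMIs each in erythroid barcodes against 21 to 95 in each embryo's Malat1-poor barcodes.

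Vessel cells were the last class compared, since blood reaches the dissection inside vessels. The vascular barcodes, 105 and 148, held at least 10 UMIs over the endothelial and mural lists and had medians of 10445 and 10735.5 other UMIs. Their haemoglobin share was 0.0188% and 0.0397% of UMIs, near the 0.0278% and 0.0412% of all other barcodes. Of 10131 genes 406 were higher in erythroid barcodes (4.01%) and 892 lower (8.8%), and with the embryo as a block 724 and 1177. With shallow barcodes alone, 398 of 9435 were higher (4.22%) and 507 lower (5.37%). *Slc4a1* had 0 UMIs in vascular barcodes and was at least 318-fold higher in erythroid ones (edgeR adjusted p = 0.000238), and *Alas2* differed by log2 9.17 ± 0.53 (edgeR adjusted p = 0.000238).

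Among the genes lower than in vascular barcodes, *Igfbp7*, *Ets1* (an endothelial transcription factor) and *Col1a2* (a collagen chain) had 0 UMIs in erythroid barcodes. They were at least 141-fold, 82.2-fold and 49.7-fold lower (edgeR adjusted p = 0.000404, 0.000518 and 0.0143). *Pde3a*, *Morrbid*, *Stard13*, *Ednra*, *Bgn* and *Dlk1*, also named lower by the rule, had 0 UMIs in erythroid barcodes as well. *Gypc*, a red cell membrane gene by its list, was lower with 0 and 1 UMIs against 45 and 46 (edgeR adjusted p = 0.0215) and was not called with shallow barcodes (edgeR adjusted p = 0.161). *Meg3* was lower by log2 −1.73 ± 0.33 (edgeR adjusted p = 0.0127). Red cell enzymes gave 7 higher of 7 tested, the membrane list 11 of 14, haem synthesis 7 of 13 and reticulocyte maturation 13 of 18, under the same limit of the filter, and 7, 12, 10 and 15 with shallow barcodes. In the same comparison 9 of 12 excitatory neuron genes were higher, and 3 higher and 1 lower with shallow barcodes.

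The 3 comparisons share the same erythroid sums and their results are not independent of each other. With 2 embryos, each p-value rests on the spread between 2 animals, which edgeR estimates with information shared over all genes. It is no measure of the spread of that gene alone. The main test did not pair the sums of an embryo.

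Shallow barcodes varied among themselves in how far the β genes were balanced. Those with at least 200 haemoglobin UMIs and without embryonic globins were ordered by the *Hbb-bt* share of β UMIs and cut into 3 groups within each embryo, of 32, 32 and 31 barcodes in embryo 4 and 53 each in embryo 5. The median *Hbb-bt* share was 19.5%, 24.7% and 30.1% in embryo 4 and 20.97%, 26.8% and 30.4% in embryo 5. *Slc25a37* stood at 3.95, 6.13 and 8.70 UMIs per 10000 UMIs of any gene in the lowest, middle and highest group of embryo 4, and at 3.24, 6.25 and 7.84 in embryo 5. *Slc4a1* stood at 0.161, 1.46 and 2.06 and at 0.611, 0.967 and 1.29. Both embryos thus held these transcripts at their lowest where *Hbb-bt* was lowest. *Alas2*, at 6.53, 10.8 and 10.5 in embryo 4 and 5.54, 8.91 and 10.7 in embryo 5, was lowest in the same group.

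Depth moved with these groups. The median UMIs per barcode were 3570.5, 6784 and 7061 in embryo 4 and 3723, 5436 and 7649 in embryo 5, while the median haemoglobin share was 85.2%, 89.9% and 88.8%, and 92.0%, 92.3% and 90.8%. The part of depth in these values was not tested. The groups were formed after the data were seen, the barcodes of an embryo share 1 library, and no test was made.

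**Figure D5:**
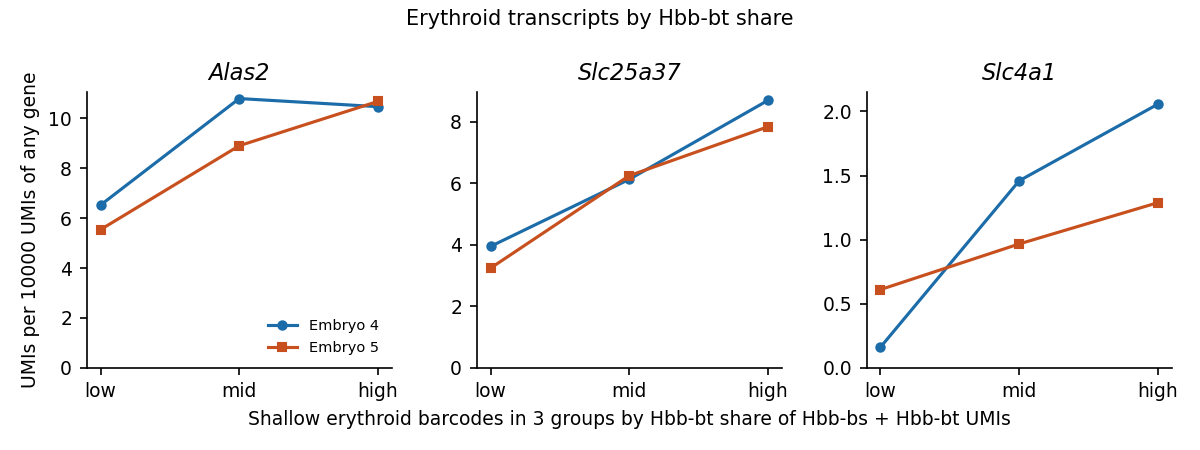
UMIs of 3 erythroid transcripts per 10000 UMIs of any gene in shallow erythroid barcodes, in 3 groups by the *Hbb-bt* share of β-globin UMIs, with 1 line per embryo and axes starting at 0. All 3 transcripts are lowest in the group of lowest *Hbb-bt* share of both embryos, and median depth is lowest there as well.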

How the data were processed

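Cortical cells of 2 E16.5 embryos labelled WT were profiled with 10x Genomics 3′ v3.1 chemistry. The authors counted UMIs with Cell Ranger (7.0.0 in the submitters' processing notes, 7.1.0 in the matrix headers) on mm10, and deposited counts of UMIs as 1 unnormalized matrix per embryo, with 32285 genes. The counting of intron reads is not given in the sources used here. Here, barcodes with at least 10% of UMIs from the 4 haemoglobin genes were kept, without a gene, mitochondrial or doublet filter. UMIs were summed per embryo and class, without the 4 genes, and compared with edgeR 4.0.16 (TMM, filterByExpr, quasi-likelihood test, Benjamini-Hochberg, called under 0.05, R 4.3.3). Genes that chose a class were not tested in it. The procedure was tested on simulated data. Depth was 124318613 and 117679925 UMIs.

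Embryo numbers pair the sums, since both classes of an embryo come from the same animal. Deviations of same-numbered sums correlated at 0.212, 0.0807 and 0.101 in the comparisons with the rest, the Malat1-poor and the vascular barcodes. Alternatives were other limits on the haemoglobin share, other scalings, no filter on low counts, the embryo as a block, DESeq2 1.42.0, other class limits and leaving out deep barcodes. The last was chosen after seeing the data, and the members and gene lists were chosen with earlier results of these data known. Named genes come from the lists or were the 10 with the largest change in each direction among called genes with at least 20 UMIs in each embryo on the higher side and the same direction in both, with ribosomal protein and mitochondrial genes given as shares. Promoters are RefSeq's for GRCm38.p6, the release behind mm10, and coding sequences GENCODE's vM39 for GRCm39. The build is named beside each coordinate. Some genes that meet the rule are not reported here.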

Additional observations from a re-analysis of the deposited data

How the results depend on the processing

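Each gene named with a test and called higher against all other barcodes kept its direction and its call under each alternative tried, except *Nfe2* with the embryo as a block. Counts of called genes moved more. Against all other barcodes the count was 285, and 697 with DESeq2's Wald test, 720 at 50% haemoglobin or more and 886 without the deep barcodes. Against Malat1-poor barcodes it was 1943, and 808 with DESeq2's Wald test, 1131 at 25%, 559 at 50%, 707 without barcodes deeper than the median of the others, 505 without the deep barcodes and 1102 with nuclear-retained RNA under 0.5%. Against vascular barcodes it was 1298, and 2239 with no filter on low counts, 808 at 50% and 798 without barcodes deeper than the median of the others. With the embryo as a replicate block, which changed no other call of a named gene, the counts were 405, 1920 and 1901, and 76.3%, 69.6% and 38.1% of them higher against 93.7%, 68.0% and 31.3%. Scaling by library size alone moved the median log2 fold change from −0.21 to −0.33 against all other barcodes and from −0.05 to −0.23 against vascular ones.

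Of the named genes, *Cenpf* turned to log2 0.34 at 5% haemoglobin, *Nrxn3* to −1.49 at 25% and −2.69 without the deep barcodes, and *Erbb4* to −2.45 without them. *Klf1* and *Gata1* were called higher with DESeq2's Wald test, and *Klf1* also at 50% haemoglobin and without the deep barcodes. Over the called genes named with a test, 1 of 408, 0 of 182 and 0 of 91 values under an alternative turned direction, and 19, 41 and 4 lost their call, all but 1 of the 19 in genes called lower. The cause was not tested.

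Erythroid barcodes were 1.24% of all barcodes over both embryos, between 0.936% and 1.55% when either embryo was left out. The embryonic globin share was 0.217%, and 0.232% at 5% haemoglobin, 0.128% at 25%, 0.0157% at 50%, 0.240% without barcodes deeper than the median of the others and 0.260% without the deep barcodes. It lay between 0.212% and 0.226% when either embryo was left out. Leaving out an embryo leaves 1 sum per class and gives fold changes without a test, so no count was made.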

Other observations

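In the 8 barcodes rich in embryonic globins, Ppp1r15a, a gene induced by stress on protein synthesis, held 13 UMIs over 9888, and Bbc3, a gene of apoptosis, held 6, against 8 and 0 over the 1420537 UMIs of the other shallow barcodes. Both genes were chosen after their values were seen, and no test was made.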
